A study of Arabidopsis thaliana with 18 samples.

Results

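Roots of Arabidopsis thaliana seedlings grown on bisphenol E (BPE) were set against roots of seedlings grown on bisphenol A (BPA), with 3 RNA sequencing libraries of each, 6 of the 18 libraries in the series. The members were taken by the compound named in each sample's title. All 6 libraries came from wild-type (WT) plants at 14 days, raised from seed on agar that held the compound. Control roots, used below as a common point of comparison, came from 3 libraries of wild-type plants of 14 days on agar with the solvent DMSO alone. The other 9 libraries came from roots on BPB, BPF or BPS. The treatment protocol names doses of 1, 3 and 10 mg/L for the compounds, and the labels do not tie a dose to a library. The step in structure and any difference in dose therefore cannot be told apart in any comparison below. Nothing in the labels says whether the 3 libraries of a group came from separate plates, so p-values measure only the spread between libraries of a group. That spread was estimated per gene over all 18 libraries, so scatter among the BPB, BPF and BPS libraries enters it.

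Bisphenols are industrial building blocks of plastics and resins in which 2 phenol rings are joined by a bridge. In BPA the bridge carbon carries 2 methyl groups, and in BPE it carries 1 methyl group and a hydrogen. Plants handle such foreign phenols much as they handle herbicides, with oxidising enzymes, glutathione and sugar transferases and membrane pumps. Roots are also where water and mineral supply are sensed, through abscisic acid signalling and through sets of metal transporters and metal-dependent enzymes. Flavonols, which the root makes from phenylalanine by a short chain of enzymes, act there as antioxidants and as modulators of auxin transport.

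Gene levels were in FPKM, fragments per kilobase of gene scaled to the depth of the library, for 33602 loci. Steps in the low values placed the depth between 15.9 and 22.2 (in 1e6 fragments) per library. Differences below are BPE minus BPA on the log2(FPKM + 1) scale, which understates the change of low genes, for the 19484 genes that averaged 1 FPKM or more across all 18. On the first principal component of all 18 libraries, which held 36.9% of the variance, the BPE libraries lay at -49.6, -59.5 and -49.9. The BPA libraries lay at -41.7, -24.8 and 20.3, so that BPA replicate 3 stood apart from the other two. Root identity genes were present in both groups, with summed levels of 2967 to 3630 FPKM in BPE and 2788 to 3661 FPKM in BPA over the 15 on the list. Genes of photosynthesis summed to 799 to 975 FPKM in BPE and 848 to 1479 FPKM in BPA over 39 genes, against 244 to 484 FPKM in control. Of 15 shoot genes outside photosynthesis, 5 were listed at 0 in every BPE library and 5 in every BPA library, and 4 were high enough to be tested. Early touch and wound genes, a list of 21, summed to 757, 915 and 1092 FPKM in the BPE libraries, against 1487, 2627 and 3104 FPKM in the BPA libraries and 623 to 1083 FPKM in control. That list stood higher in every BPA library than in any BPE library, and its part in the differences below was not tested. In bulk roots, fewer cells of a type and less RNA per cell cannot be told apart.

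**Figure D1:**
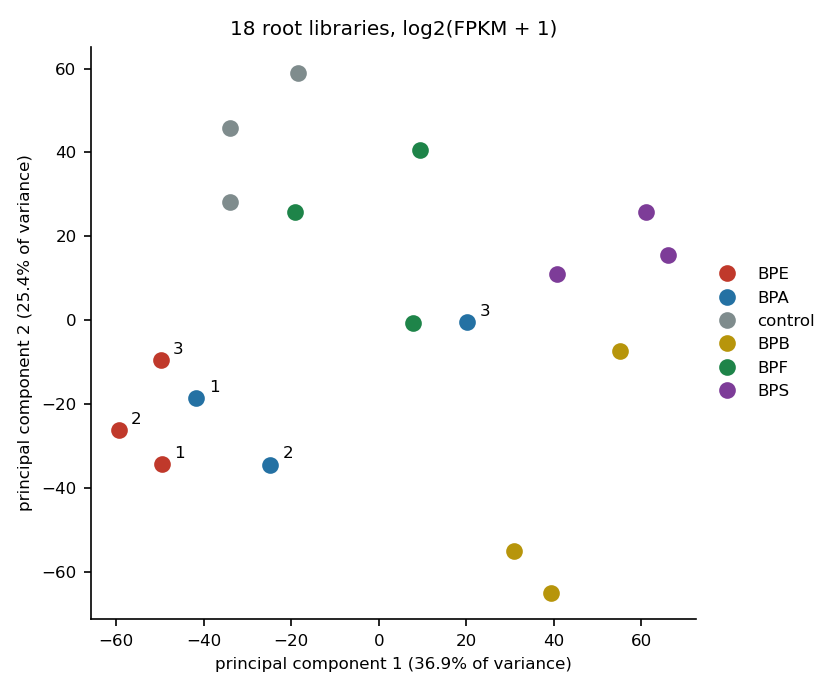
Position of the 18 root libraries on the first 2 principal components of log2(FPKM + 1), one point per library, coloured by compound, with the replicate numbers of BPE and BPA beside their points. The 3 BPE libraries lie between -59.5 and -49.6 on the horizontal axis, and BPA replicate 3 lies at 20.3, away from the other 2 BPA libraries.

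A single pair of compounds was compared. BPE and BPA roots differed in 512 of the 19484 genes (2.63%) at an adjusted p below 0.05 (limma with an intensity trend over all 18 libraries, Benjamini-Hochberg, two-sided). Of these, 358 (1.84% of the genes tested) were higher in BPE and 154 (0.79%) were lower in BPE. In 511 of the 512 the 3 BPE values and the 3 BPA values did not overlap, which was also so in 5348 of all genes tested (27.4%). The median size of the called differences was 1.04, and 275 of them were at least 2-fold. An unadjusted p below 0.05 was found in 3878 genes, 19.9% of those tested. Against control, 2783 genes (14.3%) were called in BPE roots and 2027 (10.4%) in BPA roots, in comparisons that share the control libraries. Fitted on the 6 libraries alone, the comparison gave 276 calls, with 128 higher and 148 lower in BPE. Single libraries moved the count as well. Without BPE replicate 1 or 2 it was 43 and 19, and without BPA replicate 2 or 3 it was 17 and 19. Without BPA replicate 1 it was 1185, and without BPE replicate 3 it was 371. In these fits the median size of the 512 differences was between 0.92 and 1.16. Every one of the 512 kept its direction and an unadjusted p below 0.05 in all 6 of them, and 13 genes were called in all 6. In the 511 without overlap, no left-out library could turn the direction. The 512 were also picked by p in these same libraries, so their kept direction and p are not independent support.

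**Figure D2:**
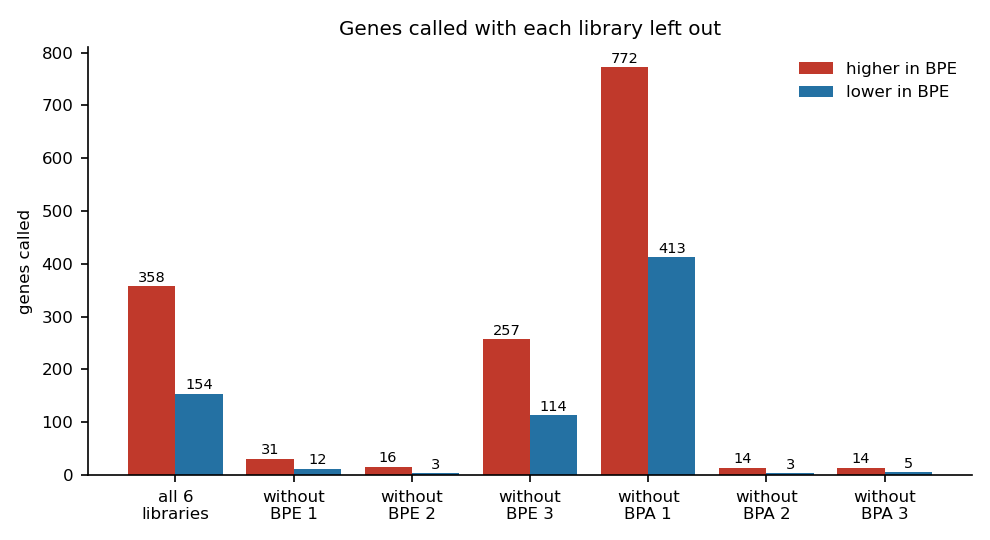
Number of genes called higher in BPE (red bars, left) and lower in BPE (blue bars, right) than in BPA, with all 6 libraries and with each one left out in turn. The counts are 358 and 154 with all libraries, and 14 and 5 without BPA replicate 3.

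Among the 13 genes called whichever library was left out, listed after their values were seen, 11 were higher in BPE, and F3H and AT1G73120 were lower in BPE. AT5G17700 had 38.7, 43.6 and 22.2 FPKM in BPE roots, against 6.42, 2.72 and 3.18 FPKM in BPA roots, a difference of 2.82 ± 0.36 (SE; limma adjusted p = 0.00418). AT5G17700 encodes a transporter of the MATE efflux family. Its BPA level also lay below the control libraries, at 41.6, 34.2 and 16.7 FPKM, and its BPE level overlapped them. NAC042 had 22.3, 20.0 and 16.3 FPKM in BPE roots, against 3.88, 1.99 and 4.72 FPKM in BPA roots, a difference of 2.22 ± 0.28 (SE; limma adjusted p = 0.00418). NAC042 is a NAC transcription factor that has been tied to stress tolerance and phytoalexin synthesis. NIT4 had 6.83, 9.69 and 3.62 FPKM in BPE roots, against 1.31, 0.627 and 0 FPKM in BPA roots, a difference of 2.23 ± 0.32 (SE; limma adjusted p = 0.00626). NIT4 is a nitrilase that breaks down cyanoalanine, a product of cyanide detoxification. WRKY8 had 14.9, 7.68 and 6.40 FPKM in BPE roots, against 2.12, 1.17 and 1.3 FPKM in BPA roots, a difference of 2.01 ± 0.27 (SE; limma adjusted p = 0.00547). WRKY8, a WRKY transcription factor of stress responses, had 1.1, 0.290 and 0.321 FPKM in control. SBT3.5, a subtilisin-like protease, had 26.8, 27.4 and 17.3 FPKM in BPE and 8.67, 6.0 and 4.72 FPKM in BPA, a difference of 1.74 ± 0.22 (SE; limma adjusted p = 0.00418). AT4G20970, a bHLH protein, had 11.7, 7.19 and 5.10 FPKM in BPE and 1.03, 0.789 and 0 FPKM in BPA, a difference of 2.48 ± 0.32 (SE; limma adjusted p = 0.00459). The single F-box gene of the set, AT1G73120, had 0.442, 0.449 and 0.0784 FPKM in BPE and 6.58, 3.74 and 4.49 FPKM in BPA, a difference of -2.15 ± 0.25 (SE; limma adjusted p = 0.00418). The others were AT5G38900 of the thioredoxin superfamily, the aspartyl protease gene AT1G44130, AT1G26420 of the FAD-binding Berberine family, the xanthine/uracil permease gene AT4G38050 and the uncharacterized AT5G48175. Those 5 were between 0.92 and 1.63 higher in BPE.

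**Figure D3:**
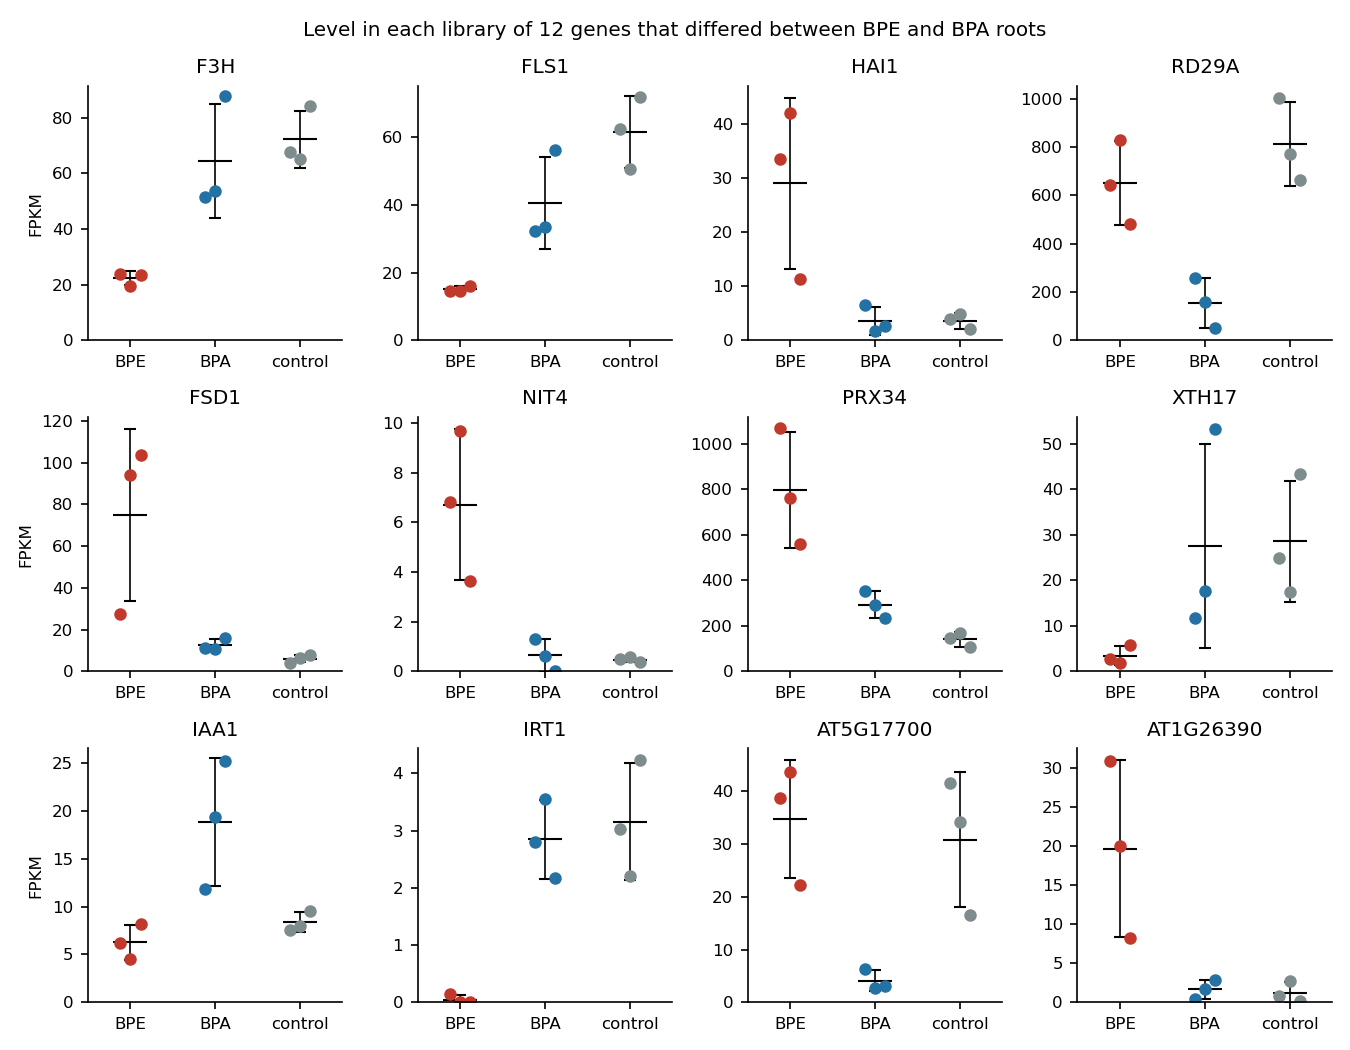
FPKM in each library (points) of 12 genes that were called between BPE (left) and BPA (middle), with control at the right of each panel. Horizontal marks and bars are the mean ± SD of 3 libraries, and every vertical axis starts at 0. In all 12 the BPE and BPA points do not overlap.

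The genes of flavonoid synthesis that passed the test were all lower in BPE than in BPA roots. Of 18 on the list, 14 were tested, 7 (50%) were called lower in BPE and none higher. Among all genes tested, 0.79% were called lower and 1.84% higher. The median difference of the 14 was -0.91, beside -0.02 over all genes tested. F3H had 24.0, 19.4 and 23.4 FPKM in BPE roots, against 51.3, 53.7 and 87.9 FPKM in BPA roots. F3H is flavanone 3-hydroxylase, the step from flavanones to dihydroflavonols, and its difference was -1.45 ± 0.21 (SE; limma adjusted p = 0.00626). All 3 BPE values were below all 3 BPA values and below the control values of 67.6, 65.1 and 84.0 FPKM. The next enzyme in the chain, flavonol synthase FLS1, had 14.7, 14.7 and 16.2 FPKM in BPE and 32.2, 33.4 and 56.1 FPKM in BPA, a difference of -1.32 ± 0.23 (SE; limma adjusted p = 0.0162). CHS, chalcone synthase, which opens the pathway, had 189, 133 and 115 FPKM in BPE and 274, 243 and 311 FPKM in BPA, a difference of -0.94 ± 0.21 (SE; limma adjusted p = 0.0332). CHIL, a chalcone isomerase-like protein, had 25.2, 21.4 and 28.9 FPKM in BPE and 48.4, 52.1 and 98.1 FPKM in BPA, a difference of -1.3 ± 0.25 (SE; limma adjusted p = 0.0229). TT7, the flavonoid 3'-hydroxylase, had 4.45, 1.71 and 1.79 FPKM in BPE and 7.43, 8.62 and 17.5 FPKM in BPA, a difference of -1.73 ± 0.34 (SE; limma adjusted p = 0.0255). UGT78D2, which adds glucose to flavonols, fell by 0.88, and the ligase 4CL3 fell by 1.18 (limma adjusted p = 0.0233 and 0.0366). MYB12, a transcription factor that switches on flavonol genes, had 13.5, 8.76 and 12.9 FPKM in BPE and 17.3, 23.9 and 31.0 FPKM in BPA without passing (limma adjusted p = 0.117). DFR, the entry to anthocyanins, had 0.0747, 1.44 and 0.0994 FPKM in BPE and 0, 0 and 1.82 FPKM in BPA, and the groups overlapped.

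Set against control, 11 of the 14 flavonoid genes were called lower in BPE roots and 1 in BPA roots, with medians of -1.12 and -0.32. Over all genes tested, 14.3% were called against control in BPE and 10.4% in BPA, in either direction. For F3H the difference from control was -1.65 in BPE (adjusted p = 0.000634) and -0.20 in BPA (adjusted p = 0.561, both limma). For CHS it was -1.0 in BPE (adjusted p = 0.00964) and -0.06 in BPA (adjusted p = 0.878, both limma). The 7 calls became 1 without BPE replicate 2, BPA replicate 2 or BPA replicate 3, and 3 without BPE replicate 1. They became 4 without BPE replicate 3. The list's median stayed between -1.02 and -0.72 in these fits, and F3H was called in every one.

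The window before the start of F3H is shown because F3H was the flavonoid gene called in every such fit. It is the 250 bases before the annotated start on chr3:19024942-19025191 (plus strand, RefSeq TAIR10.1), with ACGTG, the core of the abscisic acid response element and of the G-box, in capitals on either strand.
F3H: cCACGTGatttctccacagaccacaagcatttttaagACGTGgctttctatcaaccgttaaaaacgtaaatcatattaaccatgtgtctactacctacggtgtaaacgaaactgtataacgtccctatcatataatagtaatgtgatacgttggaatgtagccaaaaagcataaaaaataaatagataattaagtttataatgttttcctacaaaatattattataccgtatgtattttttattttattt
The window held 3 matches, of which the first 2 overlap in a single CACGTG. Matches to ACGTG were found in 3 of the 7 windows of called flavonoid genes and in 24% of the windows of all tested genes. The 7 called abscisic acid genes also had it in 3 windows. Of 2 other motifs searched, the copper response core GTAC was in 4 of the 7 flavonoid windows (34.5% of all tested). The MYB recognition motif ACCTANC was in 2 (5.39% of all tested).

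The abscisic acid and dehydration genes that passed the test were all higher in BPE than in BPA roots. Of 31 on the list, 25 were tested and 7 (28%) were called higher in BPE, none lower, beside 1.84% and 0.79% of all genes. The median of the 25 was 0.78, and 23 of them had a positive difference. HAI1, a clade A protein phosphatase 2C that is itself induced by abscisic acid and restrains its signalling, had 33.6, 42.1 and 11.4 FPKM in BPE roots, against 6.51, 1.66 and 2.58 FPKM in BPA roots. The difference was 2.67 ± 0.46 (SE; limma adjusted p = 0.0150). BPE replicate 3 was the lowest of its group and still lay above every BPA library. ABI1, another phosphatase of that clade, had 191, 257 and 128 FPKM in BPE and 82.8, 48.1 and 31.0 FPKM in BPA, a difference of 1.87 ± 0.44 (SE; limma adjusted p = 0.0400). HB7, a homeodomain transcription factor induced by water deficit, had 124, 149.7 and 68.4 FPKM in BPE and 37.8, 17.5 and 8.69 FPKM in BPA, a difference of 2.52 ± 0.55 (SE; limma adjusted p = 0.0320). AFP1, a binding partner of the transcription factor ABI5, had 81.2, 108 and 43.4 FPKM in BPE and 41.0, 28.5 and 20.4 FPKM in BPA, a difference of 1.3 ± 0.31 (SE; limma adjusted p = 0.0401).

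The called members fell into different positions relative to control. HAI1 had 3.99, 4.89 and 2.03 FPKM in control, so its difference from control was 2.57 in BPE (adjusted p = 0.00500) and -0.10 in BPA (adjusted p = 0.911, both limma). For the effector gene RD29A the control libraries lay with BPE instead. RD29A had 641, 830.0 and 480.2 FPKM in BPE roots, against 257, 159 and 51.4 FPKM in BPA roots, a difference of 2.30 ± 0.55 (SE; limma adjusted p = 0.0406). Against control roots, which had 1004, 769 and 662 FPKM, the difference was -0.33 in BPE (adjusted p = 0.710) and -2.63 in BPA (adjusted p = 0.0110, both limma). KIN1 and KIN2, a tandem pair of cold- and dehydration-induced genes so alike that reads may be split between them, had differences of 1.55 and 1.44 between BPE and BPA. KIN1 lay -2.15 from control in BPA (adjusted p = 0.00470) and -0.60 in BPE (adjusted p = 0.235, both limma). Over the list, 9 genes were called higher and none lower than control in BPE, and 1 higher and 3 lower than control in BPA. The shares called against control over all genes, in either direction, were 14.3% in BPE and 10.4% in BPA.

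Members of the abscisic acid list that missed the threshold are given as values. ABI2 and PP2CA, 2 further phosphatases, had limma adjusted p of 0.0507 and 0.0535 with differences of 1.21 and 1.02. The dehydrin gene LTI30 had 2544, 3469 and 3036 FPKM in BPE and 2331, 1926 and 812 FPKM in BPA (limma adjusted p = 0.193). NCED3, the enzyme that limits abscisic acid synthesis, had 22.8, 34.5 and 15.2 FPKM in BPE and 26.1, 23.3 and 26.1 FPKM in BPA and a difference of -0.13, with an interval of -1.03 to 0.77. NCED3 was higher than control, at 7.28, 9.65 and 7.72 FPKM, with both compounds, by 1.39 in BPE (adjusted p = 0.0418) and 1.51 in BPA (adjusted p = 0.0357, both limma). The 6 members below the level for testing were HAI2, HAI3, RD29B, RAB18, COR15A and RD20. HAI2 had 2.62, 2.92 and 1.53 FPKM in BPE and 0.390, 0.0622 and 0.211 FPKM in BPA, and the dehydrin gene RAB18 had 2.91, 5.17 and 0.965 FPKM in BPE and 0.543, 0.173 and 0.672 FPKM in BPA, in both with no overlap. No member of the list was called without BPE replicate 1, BPE replicate 2, BPA replicate 2 or BPA replicate 3, and 9 and 10 were called without BPE replicate 3 and BPA replicate 1. The median of the list stayed between 0.68 and 0.96.

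Among the superoxide dismutases, which turn superoxide into hydrogen peroxide with iron, copper and zinc, or manganese, the one called was the iron enzyme FSD1. FSD1 had 27.7, 93.9 and 103 FPKM in BPE roots, against 11.5, 10.7 and 15.9 FPKM in BPA roots, a difference of 2.28 ± 0.43 (SE; limma adjusted p = 0.0215). BPE replicate 1 was far below the other 2 BPE libraries and above all BPA libraries. Against control roots, which had 4.19, 6.33 and 7.80 FPKM, the difference was 3.24 in BPE (adjusted p = 0.000834) and 0.96 in BPA (adjusted p = 0.157, both limma). The plastid iron enzymes FSD2 and FSD3 had no call, with intervals of -0.43 to 0.31 and -0.77 to 0.09. The copper-zinc enzyme CSD1 of the cytosol had 445, 265 and 266 FPKM in BPE and 479, 482 and 441 FPKM in BPA, with a difference of -0.56 (limma adjusted p = 0.112). Its plastid relative CSD2 had 106, 79.8 and 79.6 FPKM in BPE and 108, 138 and 123 FPKM in BPA, with a difference of -0.48 (limma adjusted p = 0.102). In CSD1, BPE replicate 1 lay near the BPA libraries and the other 2 BPE libraries lay below them. CCS, the chaperone that loads copper into those enzymes, had a difference of -0.53 (limma adjusted p = 0.111). For CSD3 the interval of the difference ran from -0.11 to 0.48, and for the manganese enzyme MSD1 from -0.34 to 0.31.

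In Arabidopsis, FSD1 is known to rise and CSD1, CSD2 and CCS to fall when copper is short, under the factor SPL7, which binds GTAC cores. Of 20 genes on the superoxide dismutase and copper list, 19 were tested and 4 were called, all higher in BPE: FSD1, AT1G71200, YSL2 and CCH. That was 21.1%, beside 1.84% of all genes tested. AT1G71200, a bHLH protein, had 0.432, 2.41 and 3.25 FPKM in BPE and 0, 0 and 0.311 FPKM in BPA, a difference of 1.33 ± 0.30 (SE; limma adjusted p = 0.0364), and was listed at 0 in all 3 control libraries. YSL2, a transporter of the yellow stripe-like family, had 13.2, 21.6 and 19.0 FPKM in BPE and 10.6, 7.05 and 9.54 FPKM in BPA, a difference of 0.90 ± 0.22 (SE; limma adjusted p = 0.0413). CCH, a copper chaperone, had 137, 236 and 261 FPKM in BPE and 98.6, 91.5 and 135 FPKM in BPA, a difference of 0.93 ± 0.23 (SE; limma adjusted p = 0.0445). The copper transporter gene COPT2 and the ferric reductase gene FRO4 did not pass. COPT2 had 0.319, 3.00 and 3.96 FPKM in BPE and 0.371, 0.178 and 0.345 FPKM in BPA, and FRO4 had 0.157, 2.03 and 4.27 FPKM in BPE and 0.157, 0.125 and 0.0971 FPKM in BPA. SPL7 itself had 15.1, 14.6 and 12.8 FPKM in BPE and 12, 11 and 12.7 FPKM in BPA, with a difference of 0.24 (limma adjusted p = 0.367). In FSD1, AT1G71200, YSL2, CCH, COPT2 and FRO4, BPE replicate 1 was the lowest BPE library. In COPT2 and FRO4 it did not lie above all BPA libraries. Of the 4 calls, none was left without BPE replicate 2, BPA replicate 2 or BPA replicate 3, and 1 without BPE replicate 3. Without BPA replicate 1 there were 3, and without BPE replicate 1 there were 5.

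The 250 bases before the annotated start of the 4 called genes follow, since these genes were higher in BPE together, 5' to 3' on the gene's own strand, with GTAC in capitals. The positions in RefSeq TAIR10.1 are chr4:12887012-12887261 (minus strand) for FSD1, chr1:26837992-26838241 (minus strand) for AT1G71200, chr5:8323645-8323894 (plus strand) for YSL2 and chr3:20864728-20864977 (minus strand) for CCH.
FSD1: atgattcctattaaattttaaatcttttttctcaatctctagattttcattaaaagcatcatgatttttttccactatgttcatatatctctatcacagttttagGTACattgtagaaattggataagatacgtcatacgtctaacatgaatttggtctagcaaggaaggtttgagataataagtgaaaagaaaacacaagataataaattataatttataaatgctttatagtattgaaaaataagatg
AT1G71200: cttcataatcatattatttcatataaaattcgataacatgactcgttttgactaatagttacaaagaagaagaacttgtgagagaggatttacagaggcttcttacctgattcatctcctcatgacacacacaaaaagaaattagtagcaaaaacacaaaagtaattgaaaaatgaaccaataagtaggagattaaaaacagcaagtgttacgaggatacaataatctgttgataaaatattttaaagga
YSL2: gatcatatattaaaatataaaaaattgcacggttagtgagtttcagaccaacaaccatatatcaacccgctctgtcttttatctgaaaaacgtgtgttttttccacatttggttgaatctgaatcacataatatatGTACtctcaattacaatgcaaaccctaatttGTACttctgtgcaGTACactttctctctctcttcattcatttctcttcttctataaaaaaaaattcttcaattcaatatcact
CCH: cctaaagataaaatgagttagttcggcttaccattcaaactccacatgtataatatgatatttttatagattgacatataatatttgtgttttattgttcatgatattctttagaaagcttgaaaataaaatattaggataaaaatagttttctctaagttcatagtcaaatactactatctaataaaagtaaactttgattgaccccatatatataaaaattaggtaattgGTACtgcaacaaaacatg
GTAC, which reads the same on both strands, was present 3 times before YSL2, once before FSD1 and once before CCH, and was not among the letters before AT1G71200. It was present in 34.5% of the 18916 windows of tested genes.

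Iron uptake genes gave 2 calls among 23 tested of 29 on the list, both lower in BPE (8.7%, beside 0.79% of all genes). IRT1, the main iron importer of the root epidermis, was listed at 0.144, 0 and 0 FPKM in BPE roots, against 2.80, 3.56 and 2.18 FPKM in BPA roots and 3.04, 2.21 and 4.23 FPKM in control. Its fitted difference was -1.86 ± 0.31 (SE; limma adjusted p = 0.0136). FRO2, the ferric reductase that works with IRT1, had 0.147, 0.257 and 0.280 FPKM in BPE and 1.96, 2.88 and 2.73 FPKM in BPA, a difference of -1.51 ± 0.25 (SE; limma adjusted p = 0.0136). Its control values were 3.55, 3.18 and 3.55 FPKM. FRU, the factor also called FIT that drives both genes, had 7.29, 5.04 and 10.7 FPKM in BPE and 12.2, 13.0 and 11.6 FPKM in BPA and did not pass (limma adjusted p = 0.137). The nicotianamine synthases NAS1 and NAS2 had differences of -0.94 and -0.99 without passing. Their BPE and BPA libraries did not overlap, and NAS1 was 1.51 above control in BPA (limma adjusted p = 0.0133). The median of the list was -0.06, and between -0.20 and -0.11 in the fits without a library. Against control 2 of its genes were called higher and 4 lower in BPE, and 7 higher and none lower in BPA. Over all genes, 14.3% in BPE and 10.4% in BPA were called against control, both directions together. Both calls between BPE and BPA were lost without BPE replicate 2, BPA replicate 2 or BPA replicate 3, and 1 was lost without BPE replicate 1. Without BPA replicate 1 a gene of the list was also called higher in BPE.

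Genes known to be induced by foreign chemicals, 21 tested of 24 on the list, had a median of 0.81. Of the 21, none was called lower in BPE and 4 were called higher (19.0%, beside 1.84% of all genes). Besides NIT4 the 4 were the transcription factor gene NAC032 and the glutathione transferase genes GSTU24 and GSTU25. NAC032 had 128, 192 and 107 FPKM in BPE and 84.7, 70.0 and 47.8 FPKM in BPA, a difference of 1.06 ± 0.23 (SE; limma adjusted p = 0.0320). GSTU24 had 314, 411 and 292 FPKM in BPE and 236, 175 and 146 FPKM in BPA, a difference of 0.88 ± 0.18 (SE; limma adjusted p = 0.0284). The control libraries for GSTU24, at 293, 227 and 284 FPKM, lay between the highest BPA library and the highest BPE library, apart from 1 within the BPA range. GSTU25 (limma adjusted p = 0.0497) is a tandem neighbour of GSTU24, and reads may be shared between them. CYP81D11, a cytochrome P450 that many foreign compounds induce, had 151, 178 and 111 FPKM in BPE and 170.4, 184 and 133 FPKM in BPA and an interval of -0.69 to 0.37 between the compounds. CYP81D11 was above control, at 51.8, 50.3 and 43.9 FPKM, by 1.55 in BPE (adjusted p = 0.00291) and 1.71 in BPA (adjusted p = 0.00362, both limma). UGT74E2, a glucosyltransferase of indole butyric acid, had 46.2, 68.0 and 37.1 FPKM in BPE and 30.0, 25.2 and 12.7 FPKM in BPA without passing (limma adjusted p = 0.102). The 4 calls became 1 without BPE replicate 1 or 2 or BPA replicate 2 or 3, and 6 without BPA replicate 1. The median was 0.47 without BPA replicate 3.

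Over the enzyme families of detoxification, calls went both ways, and some were counted above. UGT78D2 and the P450 gene TT7, both lower, are also on the flavonoid list. GSTU24 and GSTU25 are also on the list of genes induced by foreign chemicals. Of all genes tested, 1.84% were called higher and 0.79% lower in BPE. Of 39 tested glutathione transferases, 5 (12.8%) were higher and 1 (2.6%), GSTU27, was lower in BPE. GSTU17 had 160.0, 170.3 and 123 FPKM in BPE and 64.7, 24.7 and 14.8 FPKM in BPA, a difference of 2.33 ± 0.54 (SE; limma adjusted p = 0.0366). Against control roots, which had 238, 166 and 129 FPKM, the difference was -0.20 in BPE (adjusted p = 0.826) and -2.54 in BPA (adjusted p = 0.0118, both limma). GSTU8 had 349, 285 and 275 FPKM in BPE and 209, 164 and 191 FPKM in BPA, a difference of 0.69 ± 0.15 (SE; limma adjusted p = 0.0314). Of 142 tested cytochromes P450, 4 were higher and 4 lower (2.8% each), the higher share being near that of all genes. CYP71B19 had 4.6, 3.47 and 2.45 FPKM in BPE and 1.21, 1.29 and 0.416 FPKM in BPA, a difference of 1.2 ± 0.25 (SE; limma adjusted p = 0.0275), and CYP71B29 had a difference of 0.96 (limma adjusted p = 0.0314). Of 48 tested UDP-glycosyltransferases, UGT87A2 was higher and UGT78D2 lower (2.1% each), the higher share again near that of all genes. UGT87A2 had 44.3, 41.3 and 29.2 FPKM in BPE and 18.8, 15.5 and 7.36 FPKM in BPA, a difference of 1.47 ± 0.33 (SE; limma adjusted p = 0.0342). No glutathione transferase, no glycosyltransferase and no higher P450 was called without BPE replicate 1 or 2 or BPA replicate 2 or 3.

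**Figure D4:**
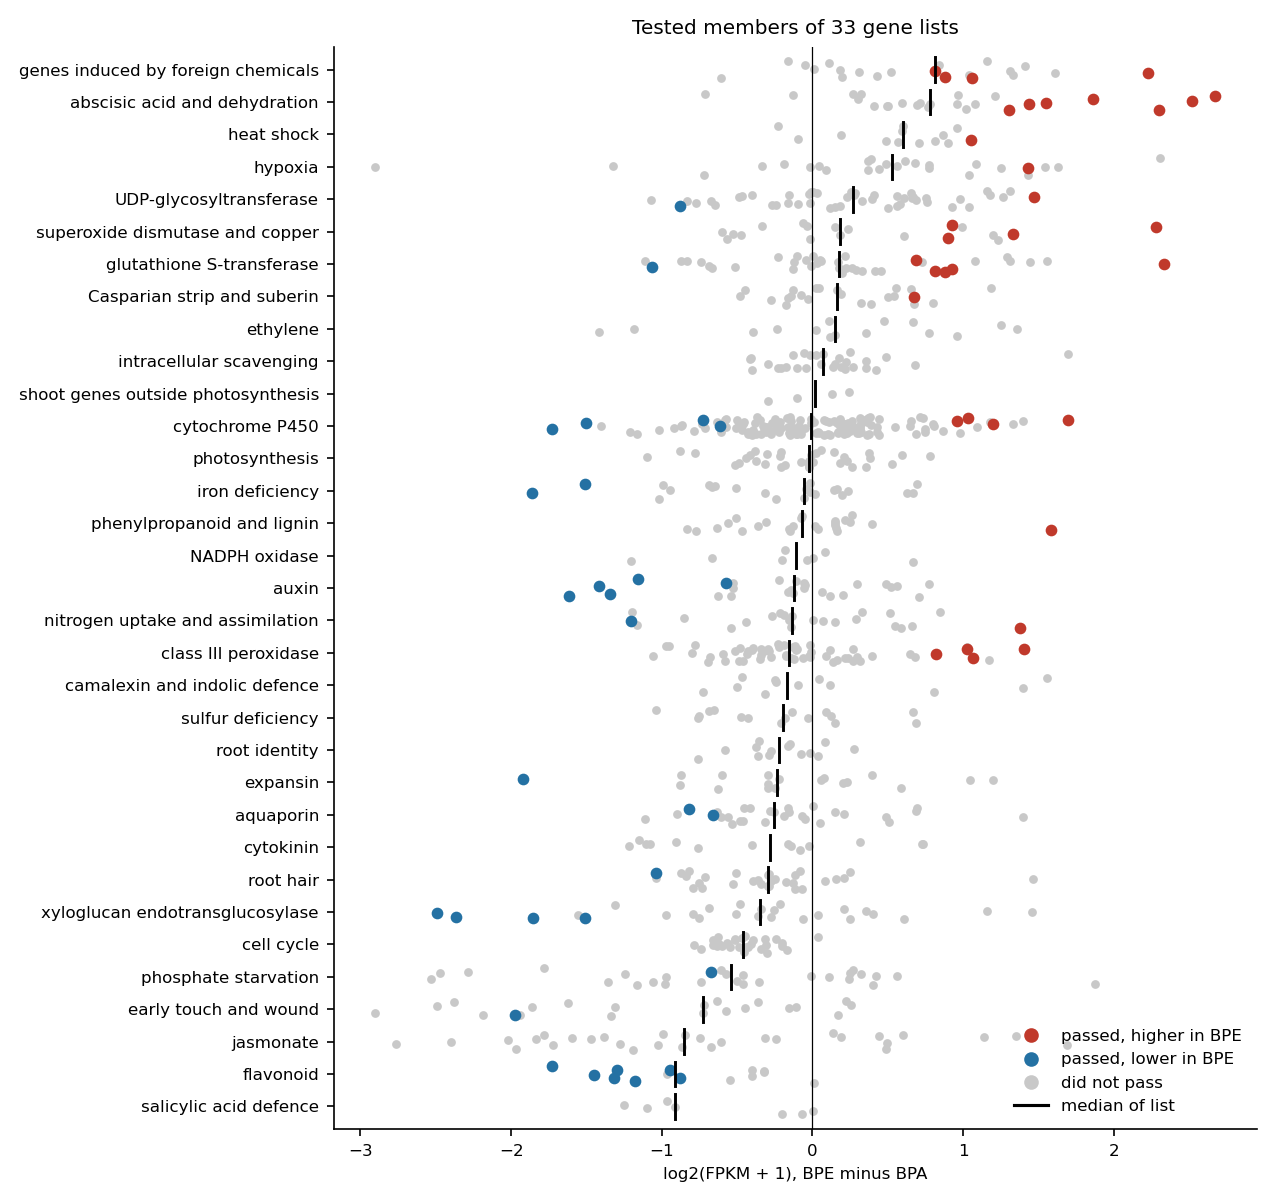
Difference between BPE and BPA for each tested member of 33 gene lists (points), ordered by the median of the list (black bars), on the log2(FPKM + 1) scale. Red points passed the test higher in BPE, blue points passed lower in BPE and grey points did not pass. The flavonoid list has its 7 blue points below zero at a median of -0.91, and the abscisic acid list has its 7 red points above zero at a median of 0.78.

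Class III peroxidases, secreted enzymes that make and use hydrogen peroxide in the cell wall, gave 4 calls among 60 tested, all higher in BPE. That was 6.7%, beside 1.84% of all genes tested, while the median of the family was -0.16. PRX34, which contributes to the apoplastic oxidative burst, had 1069, 760.0 and 561 FPKM in BPE roots, against 353, 292 and 236 FPKM in BPA roots and 145, 170.0 and 107 FPKM in control. Its difference was 1.41 ± 0.24 (SE; limma adjusted p = 0.0144), and BPA was itself 1.06 above control (limma adjusted p = 0.0156). PRX52, which has a part in lignin formation, had 2.61, 2.99 and 1.4 FPKM in BPE and 0.773, 0.508 and 0.404 FPKM in BPA, a difference of 1.07 ± 0.20 (SE; limma adjusted p = 0.0207). AT5G64110 had 5.19, 4.35 and 4.44 FPKM in BPE and 2.37, 1.5 and 1.53 FPKM in BPA, a difference of 1.03 ± 0.24 (SE; limma adjusted p = 0.0364). Among 8 tested NADPH oxidases, the source of apoplastic superoxide, limma called none, and 2 had an unadjusted p below 0.05. The spread behind these p-values also drew on the other compounds. Summed levels of the list ran from 128 to 367 FPKM in BPB and from 152 to 366 FPKM in BPS. In BPE they ran from 133 to 178 FPKM and in BPA from 227 to 239 FPKM. RBOHD had 43.9, 51.4 and 59.7 FPKM in BPE and 96.5, 134 and 131 FPKM in BPA (limma adjusted p = 0.321). Among 29 tested genes of intracellular scavenging limma also called none, with 6 at an unadjusted p below 0.05 and a median of 0.07. These shares lay near the 19.9% of all genes tested. Without BPA replicate 1, 1 NADPH oxidase was called higher, and 1 scavenging gene was called in each direction. Without BPE replicate 3, and also with the 6 libraries fitted alone, 1 NADPH oxidase was called lower. No peroxidase was called without BPE replicate 1 or 2 or BPA replicate 2 or 3, and 2 were called without BPE replicate 3. Without BPA replicate 1, 5 were called higher and 1 lower. The median of the family ranged from -0.30 without BPE replicate 3 to -0.09 without BPA replicate 3.

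Wall-loosening genes that passed the test were lower in BPE. Of 26 tested xyloglucan endotransglucosylases (XTH), which cut and rejoin xyloglucan in growing walls, 4 were called, all lower in BPE. That was 15.4%, beside 0.79% of all genes tested. The median of the 26 was -0.35, and 8 of them had a positive difference. At an unadjusted limma p below 0.05, 4 of the 26 were higher and 7 lower in BPE. XTH17 had 2.76, 1.82 and 5.87 FPKM in BPE and 11.6, 17.8 and 53.3 FPKM in BPA, a difference of -2.49 ± 0.54 (SE; limma adjusted p = 0.0320). XTH19 had 10.3, 10.1 and 15.4 FPKM in BPE and 32.5, 46.4 and 177 FPKM in BPA, a difference of -2.37 ± 0.52 (SE; limma adjusted p = 0.0320). BPA replicate 3 was the highest BPA library in both, and in both all control libraries lay above the BPE ones and within the BPA range. The summed level of the early touch and wound genes was also highest in BPA replicate 3, and its part here was not tested. XTH15 and XTH21 fell by 1.51 and 1.85 (limma adjusted p = 0.0400 and 0.0458). These genes have close relatives, and reads may be shared between them. Of 18 tested expansin genes, 1 was called, EXPA12, lower in BPE (5.6%, beside 0.79% of all genes). EXPA12 had 0.654, 0.277 and 0.483 FPKM in BPE and 2.54, 6.07 and 5.77 FPKM in BPA, a difference of -1.92 ± 0.32 (SE; limma adjusted p = 0.0136). The median of the 18 was -0.23, and 8 had a positive difference. At an unadjusted limma p below 0.05, 2 were higher and 5 lower in BPE. Without BPE replicate 1 or BPA replicate 1, 1 expansin was called in each direction. No expansin was called without BPE replicate 2 or BPA replicate 2 or 3.

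Of 26 tested auxin genes, with a median of -0.12, 5 were called, all lower in BPE (19.2%, beside 0.79% of all genes). IAA1, an early auxin-induced repressor, had 6.18, 4.49 and 8.17 FPKM in BPE and 11.8, 19.3 and 25.2 FPKM in BPA, a difference of -1.41 ± 0.23 (SE; limma adjusted p = 0.0136). Against control roots, which had 7.53, 7.97 and 9.54 FPKM, the difference was -0.39 in BPE (adjusted p = 0.274) and 1.03 in BPA (adjusted p = 0.0157, both limma). IAA5 and IAA19, of the same family, fell by 1.62 and 1.16 (limma adjusted p = 0.0191 and 0.0277). GH3.1, of a family that conjugates auxin, had 1.33, 0.80 and 1.0 FPKM in BPE and 2.35, 4.66 and 6.20 FPKM in BPA, a difference of -1.34 ± 0.28 (SE; limma adjusted p = 0.0290). ARF19, a transcription factor of auxin response, had 14.1, 15.4 and 18.2 FPKM in BPE and 23.9, 25.0 and 23.0 FPKM in BPA, a difference of -0.57 ± 0.11 (SE; limma adjusted p = 0.0233). PIN7, an auxin exporter, had 11.6, 14.1 and 14.6 FPKM in BPE and 8.07, 6.11 and 9.55 FPKM in BPA without passing. MYB77, a factor that acts with auxin response factors, had 4.64, 2.85 and 4.39 FPKM in BPE and 9.61, 19.2 and 23.3 FPKM in BPA, a difference of -1.82 ± 0.34 (SE; limma adjusted p = 0.0207). RSL4, which sets root hair growth, was the call among 32 tested root hair genes, with 4.33, 3.43 and 8.16 FPKM in BPE and 11, 11.3 and 11.7 FPKM in BPA, a difference of -1.04 ± 0.25 (SE; limma adjusted p = 0.0437). Against control, 16 root hair genes were called lower in BPE and 4 in BPA, with medians of -1.38 and -1.04. Calls against control in either direction covered 14.3% of all genes in BPE and 10.4% in BPA. The auxin median ranged from -0.27 without BPE replicate 1 to -0.03 without BPA replicate 3. No auxin or XTH gene was called without BPE replicate 1 or 2 or BPA replicate 2 or 3. Without BPE replicate 3 there were 4 and 3 calls, all lower. Without BPA replicate 1 there were 5 auxin calls, all lower, and among XTH genes 4 lower and 3 higher calls.

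**Figure D5:**
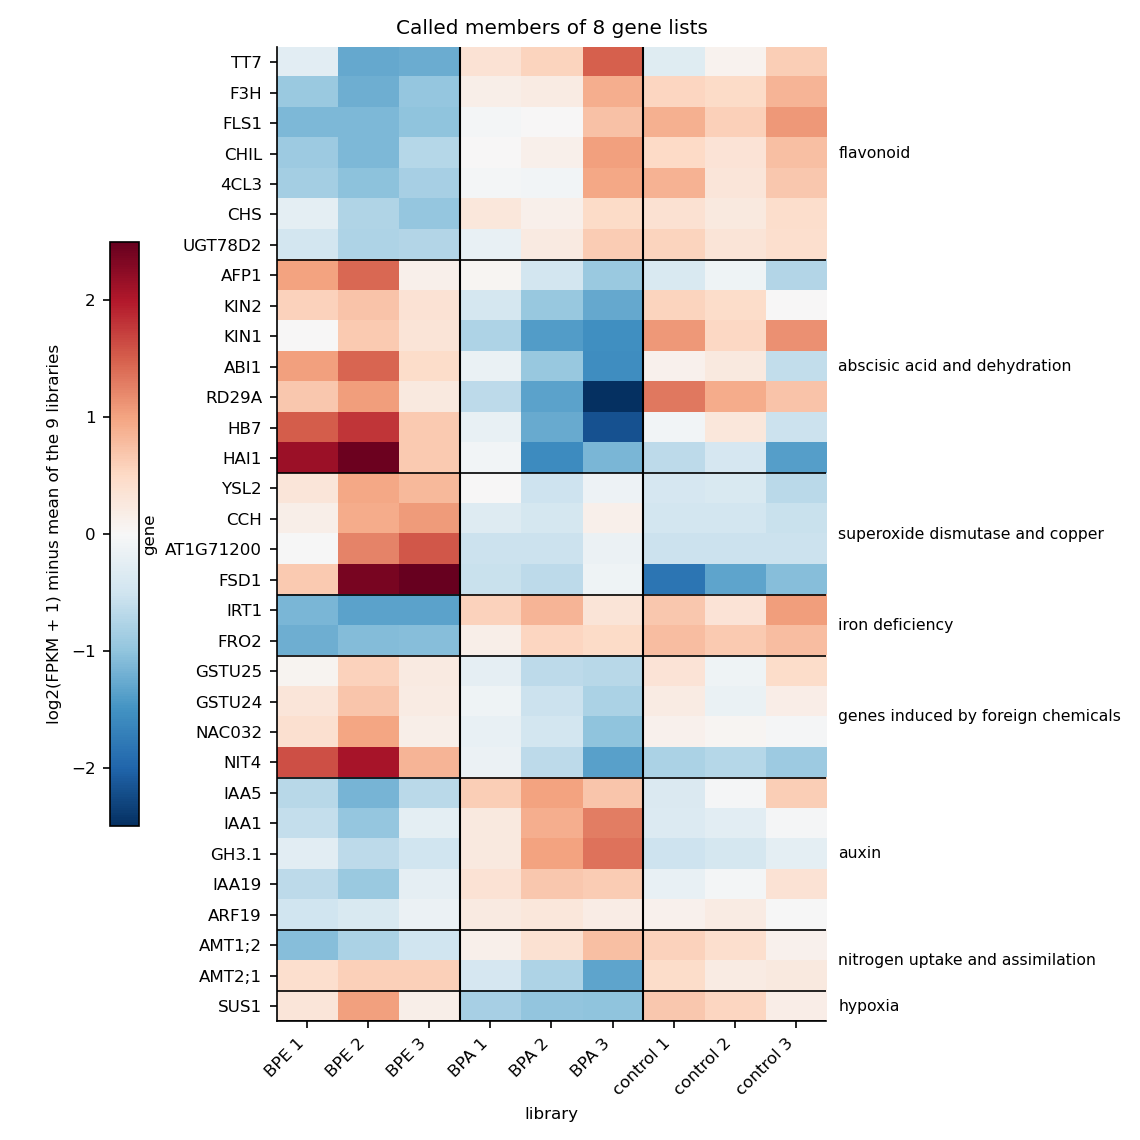
log2(FPKM + 1) of the called members of 8 gene lists in the BPE (left), BPA (middle) and control (right) libraries, each gene centred on its mean over the 9 libraries, so that red is above and blue below that mean. The colour scale is capped at 2.5 either way. Flavonoid genes are blue in BPE, HAI1 and FSD1 are red in BPE, and RD29A and KIN1 are blue in BPA and red in control.

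Few transporters of nitrogen, water and boron were called. AMT2;1, an ammonium transporter, had 26.5, 30.0 and 30.0 FPKM in BPE and 14.3, 11 and 7.24 FPKM in BPA, a difference of 1.38 ± 0.23 (SE; limma adjusted p = 0.0139). Its control values, 27.1, 22.6 and 23.4 FPKM, lay near the BPE values. AMT1;2, another ammonium transporter, went the other way with 8.83, 10.9 and 13.5 FPKM in BPE and 21.3, 25.8 and 33.6 FPKM in BPA, a difference of -1.2 ± 0.26 (SE; limma adjusted p = 0.0320). Of 29 tested aquaporins, PIP1;5 and NIP5;1 were called, both lower in BPE (6.9%, beside 0.79% of all genes). NIP5;1, which takes up boric acid, had 29.3, 38.4 and 42.6 FPKM in BPE and 49.4, 62.8 and 62.5 FPKM in BPA, a difference of -0.66 ± 0.16 (SE; limma adjusted p = 0.0434). PIP1;5, of the plasma membrane group, had 43.4, 52.9 and 57.4 FPKM in BPE and 74.1, 91.2 and 109 FPKM in BPA, a difference of -0.82 ± 0.18 (SE; limma adjusted p = 0.0322). Of 28 tested phosphate starvation genes, LPR1 was called, lower in BPE (3.6%, beside 0.79% of all genes). LPR1, a multicopper oxidase of the root's phosphate response, had 3.51, 3.91 and 2.89 FPKM in BPE and 5.57, 5.11 and 7.71 FPKM in BPA, a difference of -0.67 ± 0.16 (SE; limma adjusted p = 0.0429). Of these 5 calls, none was left without BPE replicate 2 or BPA replicate 2 or 3, and 1, AMT2;1, without BPE replicate 1. The 4 calls other than LPR1 were left without BPE replicate 3.

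Other lists gave 1 call or none, beside 1.84% higher and 0.79% lower of all genes tested. SUS1, a sucrose synthase of the low-oxygen response, had 45.6, 75.8 and 40.9 FPKM in BPE and 20.4, 18.1 and 17.8 FPKM in BPA, a difference of 1.43 ± 0.30 (SE; limma adjusted p = 0.0278), as the call among 26 hypoxia genes, whose median was 0.53. Against control those 26 had medians of -1.1 in BPE, with 6 called lower and 2 higher, and -1.45 in BPA, with 13 called lower. Among all genes, 14.3% were called against control in BPE and 10.4% in BPA, in either direction. ADH1, alcohol dehydrogenase, had 85.1, 163 and 133 FPKM in BPE and 34.5, 22.6 and 17.4 FPKM in BPA, against 380.2, 199 and 359.7 FPKM in control, and did not pass between the compounds (limma adjusted p = 0.0600). Of 25 tested phenylpropanoid and lignin genes, with a median of -0.07, CAD5 was called (4%). CAD5, a cinnamyl alcohol dehydrogenase of lignin synthesis, had 411, 445 and 378 FPKM in BPE and 234, 147 and 72.8 FPKM in BPA, a difference of 1.59 ± 0.34 (SE; limma adjusted p = 0.0314). Against control roots, which had 472, 397 and 307 FPKM, the difference was 0.09 in BPE (adjusted p = 0.884) and -1.5 in BPA (adjusted p = 0.0155, both limma). Of 23 tested Casparian strip and suberin genes, with a median of 0.17, KCS20 was called (4.3%). KCS20, which extends the fatty acids of suberin, had 89.7, 85.9 and 65.2 FPKM in BPE and 62.0, 42.7 and 45.8 FPKM in BPA, a difference of 0.67 ± 0.16 (SE; limma adjusted p = 0.0401). Of 13 tested heat shock genes, with a median of 0.60, HSP17.4 was called (7.7%). In that list 11 genes had a positive difference, and 8, all higher in BPE, had an unadjusted p below 0.05, beside 19.9% of all genes. HSP17.4, a small heat shock protein, had 5.11, 4.91 and 3.79 FPKM in BPE and 1.22, 2.18 and 1.74 FPKM in BPA, a difference of 1.05 ± 0.24 (SE; limma adjusted p = 0.0333). SUS1, CAD5, KCS20 and HSP17.4 were not called without BPE replicate 1 or 2 or BPA replicate 2 or 3, nor HSP17.4 without BPA replicate 1. Limma called none of 30 tested cell cycle genes, although 29 of the 30 had a negative difference, 16 had an unadjusted p below 0.05, beside 19.9% of all genes, and the median was -0.46. The median was -0.24 without BPA replicate 3, and 6 cell cycle genes were called lower in BPE without BPA replicate 1.

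Of the lists of wound and defence genes, 1 gene passed the test. It was one of the 21 early touch and wound genes, TCH2, a calmodulin-like protein, with 23.8, 23.5 and 35.7 FPKM in BPE and 61.0, 127 and 169 FPKM in BPA, a difference of -1.97 ± 0.47 (SE; limma adjusted p = 0.0407). The call on TCH2 was left in 1 of the 6 fits without a library, the one without BPA replicate 1. In 12 of the 21, BPE lay below BPA with no overlap, and 5 had an unadjusted p below 0.05. Over all genes tested, 27.4% did not overlap, in either direction, and 19.9% had such a p. WRKY40, a defence regulator, had 50.5, 54.6 and 101 FPKM in BPE and 186, 383 and 572 FPKM in BPA (limma adjusted p = 0.264). Limma called none of 30 tested jasmonate genes, of which 3 higher and 3 lower ones had an unadjusted p below 0.05, at a median of -0.85. That share lay near the 19.9% of all genes tested. The spread behind these p-values took in the other compounds, where the list's summed level ran from 584 to 3810 FPKM in BPB and from 952 to 5948 FPKM in BPS. In BPE that sum ran from 2528 to 4079 FPKM and in BPA from 4711 to 5377 FPKM. The groups did not overlap in 16 lower and 4 higher jasmonate genes, beside 27.4% of all genes tested. MYC2, the main transcription factor of jasmonate response, had 96.8, 75.2 and 88.6 FPKM in BPE and 139.9, 229 and 363 FPKM in BPA (limma adjusted p = 0.202). Limma called none of 7 tested salicylic acid genes, 3 of which, all lower in BPE, had an unadjusted p below 0.05, beside 19.9% of all genes. Their median was -0.91, and -0.55 without BPA replicate 3. Limma also called none of 12 tested camalexin and indolic defence genes. Of these, 3, all higher in BPE, had an unadjusted p below 0.05, near the 19.9% of all genes. Their median was -0.17, and 7 of the 12 had a negative difference. GSTF6, a glutathione transferase of camalexin synthesis, had 75.5, 75.7 and 65.2 FPKM in BPE and 32.4, 18.1 and 23.0 FPKM in BPA, with a difference of 1.56 (limma adjusted p = 0.0952). CYP71A12, a P450 of indolic defence, had a difference of 1.4 (limma adjusted p = 0.140). Limma called none of 35 tested photosynthesis genes between the compounds, with 2 at an unadjusted p below 0.05, below the share of all genes, and a median of -0.02, which ranged from -0.23 without BPA replicate 1 to 0.19 without BPA replicate 2. Their medians against control were 1.38 in BPE and 1.41 in BPA.

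The largest differences are given here where no list held them. AT1G26390 and AT1G26380, neighbouring and alike genes of FAD-binding Berberine family proteins, had differences of 2.89 and 2.86. AT1G26380 had 17.6, 20.4 and 16.2 FPKM in BPE and 2.01, 1.32 and 1.59 FPKM in BPA, against 0.596, 1.06 and 0.586 FPKM in control (limma adjusted p = 0.0107 between the compounds). LEA4-5, a late embryogenesis abundant protein that protects cells under drying, had 97.1, 119.7 and 26.4 FPKM in BPE and 16.8, 10.2 and 4.42 FPKM in BPA, a difference of 2.74 ± 0.57 (SE; limma adjusted p = 0.0280). TI1, a trypsin inhibitor, had 187, 139 and 117 FPKM in BPE and 27.1, 26.2 and 15.3 FPKM in BPA, a difference of 2.66 ± 0.42 (SE; limma adjusted p = 0.0124). PLA2A, a patatin-type phospholipase, had 70.2, 97.0 and 102 FPKM in BPE and 26.4, 15.7 and 9.61 FPKM in BPA, a difference of 2.4 ± 0.53 (SE; limma adjusted p = 0.0327). AT1G10585, a bHLH protein, had 6.33, 6.43 and 2.72 FPKM in BPE and 0.233, 0 and 0 FPKM in BPA, a difference of 2.45 ± 0.40 (SE; limma adjusted p = 0.0136). It was listed at 0 in 2 BPA libraries. TRM10, a GAR2-like protein in the annotation, had 0.749, 0.471 and 3.01 FPKM in BPE and 4.82, 9.73 and 17.4 FPKM in BPA, a difference of -2.27 ± 0.38 (SE; limma adjusted p = 0.0141). AT1G02810, of the plant invertase/pectin methylesterase inhibitor superfamily, had 5.51, 5.87 and 8.21 FPKM in BPE and 15.6, 23.3 and 65.4 FPKM in BPA, a difference of -2.01 ± 0.43 (SE; limma adjusted p = 0.0314). None of these genes was called without BPE replicate 2 or BPA replicate 2 or 3. Of the 63 genes chosen by rule, 12 overlap another locus in the RefSeq annotation, namely F3H, YSL2, CSD1, CSD3, GSTU17, XTH15, IAA5, ARF19, LPR1, TCH2, HSP17.4 and AT1G10585. Libraries were strand-specific per the labels, but whether counting used the strand is not given in the sources used here, so reads of overlapping loci cannot be told apart.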

How the data were processed

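Total root RNA was sequenced as strand-specific libraries, per the labels. Per the submitters' processing notes, HISAT2 2.0.4 and StringTie 1.3.0 were used with TAIR10. The annotation release is not given in the sources used here. The authors deposited 1 table of FPKM per sample, per the file headers, for 33602 loci. FPKM are not counts, so the test was limma 3.58.1 (R 4.3.3) with an intensity trend on log2(FPKM + 1), pseudocount 1, over the 6 groups of 18 libraries, for genes that averaged 1 FPKM or more. P-values were adjusted by the Benjamini-Hochberg method over all 19484 genes, with a threshold of 0.05. Depth was estimated from steps in the low FPKM of loci with 1 transcript; 44.6 to 53.2% of the low values were whole reads within 0.02, too few for a count test. No pair of libraries held the same values.

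Samples were grouped by the compound in their titles. The 33 gene lists hold 1053 loci. The members and lists were chosen with earlier results of these data known, so no list is independent support. By rule, genes were named if they were among the 3 called members of a list with the smallest adjusted p, among the 10 largest rises or falls of called genes without overlap, or superoxide dismutases or CCS. Other list members are given as values and, like genes outside the lists, were chosen after their values were seen. Alternatives were quantile normalization, median scaling, no intensity trend, no filter on low values, a mean of at least 5 FPKM, pseudocount 0.1, a replicate block, the 6 libraries alone, an added 2-fold threshold and each library left out in turn.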

Additional observations from a re-analysis of the deposited data

How the results depend on the processing

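The count of 512 genes called between BPE and BPA (358 higher, 154 lower in BPE) came to 276 (128 higher) when the 6 libraries were fitted alone, with fewer libraries behind the spread, and to 275 (205 higher, 70 lower) with a 2-fold threshold added. With no filter on low values, 356 genes were called, of which 94 were lower in BPE, with 27156 genes tested. Leaving out 1 library gave 17 to 1185 calls, with 14 to 772 higher and 3 to 413 lower in BPE, the cause of which was not tested. The counts under the other alternatives were within 1.5 times of these, from 414 with pseudocount 0.1 or a mean of at least 5 FPKM to 597 with median scaling and 652 with a replicate block (424 higher, 228 lower). The deviations of same-numbered BPE and BPA libraries correlated at -0.092, 0.115 and 0.164. Those of unlike-numbered ones ran from -0.222 to 0.2. With 3 libraries per group, these values cannot tell whether replicate numbers pair the libraries. Of the 56 called genes chosen by rule, all kept their sign in every alternative in which they were tested. They were still called in 55 with quantile normalization, 56 with median scaling, no trend or the block, 52 with pseudocount 0.1, 45 with no filter, 42 of the 42 still tested at a mean of 5 FPKM, and 23 with the 6 libraries alone. Without 1 library, 5 to 55 were still called, and the sign could not turn in genes without overlap. FSD2 turned to 0.0346 without BPA replicate 2 (range without 1 library -0.172 to 0.0346). MSD1 turned to 0.0176 with quantile normalization and ranged from -0.0919 to 0.0818 without 1 library. Neither had passed the test. Depth limits the low genes most, and the 95% interval of a difference had a median width of 0.40 on either side.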

Other observations

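A run of neighbouring genes of FAD-binding Berberine family proteins, chosen after their values were seen, was higher in BPE than in BPA roots. AT1G26410 had 6.03, 3.39 and 4.28 FPKM in BPE and 0.702, 1.09 and 0.372 FPKM in BPA, against 0.151, 0.277 and 0.0595 FPKM in control, a difference of 1.69 ± 0.30 (SE; limma adjusted p = 0.0163). AT1G26420 had 9.37, 6.85 and 6.16 FPKM in BPE and 1.83, 1.69 and 1.58 FPKM in BPA, a difference of 1.63 ± 0.24 (SE; limma adjusted p = 0.00727). AT1G26380 and AT1G26390 differed by 2.86 and 2.89 in the same direction. In all 4 genes every BPE library lay above every BPA library. AT1G26400, which sits among them, was at or near 0 in every BPE and BPA library and was not tested. Members of the family oxidise cell wall fragments and other substrates, and reads may be shared between such close copies.

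Metal handling genes outside the lists, also chosen after their values were seen, were called in both directions. HMA5, a copper-transporting ATPase of the root, had 38.6, 42.0 and 30.0 FPKM in BPE and 23.4, 21.9 and 10.9 FPKM in BPA, a difference of 1.0 ± 0.25 (SE; limma adjusted p = 0.0458). AT1G21140, of the vacuolar iron transporter family, had 37.4, 45.5 and 51.4 FPKM in BPE and 22.5, 27.8 and 14.5 FPKM in BPA, a difference of 1.05 ± 0.22 (SE; limma adjusted p = 0.0290). FER3, a ferritin that stores iron in plastids, had 31.3, 35.7 and 48.7 FPKM in BPE and 53.6, 82.3 and 87.5 FPKM in BPA, a difference of -0.92 ± 0.23 (SE; limma adjusted p = 0.0458). HMA5 and AT1G21140 were called in 1 of the 6 fits without a library and FER3 in 2.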
